A study of Homo sapiens with 47 samples.

Results

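The long intervals described here are the 334 entries of a deposited table of genomic intervals that lie on chromosomes 1 to 22 and span 300 kb or more. The table has 1848 entries in all, of which 1784 are on those chromosomes. Its entries sit on a 20 kb grid, and an interval was taken to run from the printed start to 20 kb past the printed end. The choice used length alone and none of the table's statistics. No source used here names the assay behind the table, the libraries it compares or the direction of its fold change.

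The study set drug-resistant melanoma cells beside their parents. 451Lu and WM983B are human melanoma cell lines, and each was profiled as a parental line and as a line resistant to Vemurafenib, an inhibitor of the kinase BRAF. 451Lu was also engineered in 3 ways. AP1 cells over-express c-JUN and c-FOS and have vector cells as controls, shp150 cells carry a short hairpin RNA against p150 and have NT cells as controls, and shp150_AP1 cells carry both changes and have vector_NT cells as controls. Accessible chromatin was mapped by ATAC-seq in 20 libraries with 2 per group. H3K9me3 ChIP was used for 8 libraries with 2 per group (parental, resistant, vector_NT and shp150_AP1 451Lu). The labels list 2 H3K27ac libraries for each of the parental and resistant groups, and 1 of each was used here, replicate 1 in 451Lu and replicate 2 in WM983B. The other 15 samples, among them the remaining 4 H3K27ac libraries and the RNA libraries, were not analysed here, so the melanocytic identity of the lines could not be checked against expressed markers. The labels do not say that replicates come from separate cultures, so p-values measure only the spread between these libraries, which may be technical. They also do not say how many clones each resistant or engineered line represents, or whether the drug was present at harvest. Each library pools many cells, so more cells that carry a feature and more of the feature in each cell cannot be told apart.

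ATAC-seq marks DNA that the Tn5 enzyme can reach, mostly at promoters and enhancers. H3K27ac marks histones at regulatory DNA in use, and H3K9me3 is the mark of constitutive heterochromatin, which is deposited in broad domains and is bound by HP1 proteins. AP-1 is a dimer of JUN and FOS proteins that binds a short palindromic DNA motif, and p150 (gene CHAF1A) is the large subunit of CAF-1, the chaperone that loads new histones behind replication forks. In melanoma, loss of the melanocyte programme headed by MITF together with higher growth factor receptor and AP-1 activity is a known state of tolerance to BRAF inhibitors.

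Promoters from 4 genes of the long intervals are printed first because these intervals gained ATAC peaks in resistant 451Lu, as described below, and because the promoters hold the AP-1 motif. They are the only 4 with the motif among 28 genes with a RefSeq promoter entry, of 44 genes placed in the intervals with more ATAC peaks by the test across all intervals. Each run gives the 250 bases before the RefSeq start site, 5′ to 3′ on the gene's strand, in GRCh38.p14, and capitals mark the motif TGANTCA, which reads the same on both strands.
FEZ2: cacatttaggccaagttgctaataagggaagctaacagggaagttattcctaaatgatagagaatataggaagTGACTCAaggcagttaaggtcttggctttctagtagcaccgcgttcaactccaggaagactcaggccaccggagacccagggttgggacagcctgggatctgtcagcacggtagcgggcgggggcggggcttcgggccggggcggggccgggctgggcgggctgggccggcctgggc
GLI2: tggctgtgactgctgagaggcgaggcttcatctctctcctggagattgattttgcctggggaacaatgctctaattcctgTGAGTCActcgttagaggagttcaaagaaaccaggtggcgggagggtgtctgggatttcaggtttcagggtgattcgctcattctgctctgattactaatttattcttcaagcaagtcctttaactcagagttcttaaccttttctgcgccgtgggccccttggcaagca
LYPD1: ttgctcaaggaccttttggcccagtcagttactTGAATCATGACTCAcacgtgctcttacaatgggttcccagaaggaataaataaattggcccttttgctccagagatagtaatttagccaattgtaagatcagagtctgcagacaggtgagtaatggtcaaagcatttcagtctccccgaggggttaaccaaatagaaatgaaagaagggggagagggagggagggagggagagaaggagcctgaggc
KCNMA1: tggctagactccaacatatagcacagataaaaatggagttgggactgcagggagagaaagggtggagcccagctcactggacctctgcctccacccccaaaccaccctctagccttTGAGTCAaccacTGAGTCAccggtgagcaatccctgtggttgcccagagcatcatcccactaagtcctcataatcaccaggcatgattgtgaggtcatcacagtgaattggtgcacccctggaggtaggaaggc
The motif starts at position -177 in FEZ2 and -170 in GLI2, counted back from the start site. LYPD1 has a pair at -217 and -210 that abut, and KCNMA1 has a pair at -134 and -122. The 4 of 28 genes are 14.3%. The motif was found in 12% of the 440 genes placed in any long interval that have an entry, in 8.06% of all genes with an entry (2200 of 27305) and in 6.57% of all promoters (2308 of 35116). A match describes letters only and not a bound site.

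The 334 intervals together cover 149.24 Mb. Their length ran from 300 to 1360 kb with a median of 380 kb. The length minimum cuts through a continuous spread of lengths: 45 intervals of 260 kb and 45 of 280 kb fell just outside, and 40 of 300 kb and 31 of 320 kb just inside. The deposited baseMean, the authors' mean level per interval, had a median of 3445 in the long intervals and 819 in the 1450 shorter ones. Per 20 kb of interval the medians were 160 and 136, closer together than the levels per interval.

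Genes were placed in the intervals by well-known positions on hg19, since an annotation of that build was not used here. At least 1 gene was placed in 312 intervals and none in 22. The 560 placements name 558 genes, and in RefSeq GRCh38.p14 all 560 lie on the same chromosome and in the same order. The placement is therefore a guide to contents and not a full gene count.

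The longest interval, chr2:205320001-206680000 (1360 kb), holds PARD3B, a cell polarity gene, and NRP2, a co-receptor for semaphorins and VEGF. Next came chr7:28360001-29700000 (1340 kb) with the transcription factor gene CREB5, then NRG3 on chromosome 10 (1220 kb), ROBO2 on chromosome 3 (1200 kb) and CDH13 on chromosome 16 (1100 kb). NRG3 encodes a ligand of ERBB4, ROBO2 a receptor for the guidance protein SLIT, and CDH13 a cadherin without a cytoplasmic tail. The highest baseMean, 2491740, belonged to chr1:480001-1000000, with ISG15 and AGRN. A near copy of mitochondrial DNA is known to lie in that stretch of chromosome 1, so reads there may be shared and its level is uncertain. FN1, the fibronectin gene, followed at 494595, and the interval with the collagen gene COL1A1 stood at 376400.

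Gene lists chosen for this tissue and treatment were placed in part. Of 16 melanocyte and pigment genes, 7 were placed (MITF, TFAP2A, TYRP1, DCT, OCA2, SLC45A2 and EDNRB). Of 22 receptor tyrosine kinases and ligands, 7 were placed (MET, ERBB4, NRG1, NTRK3, EPHA3, EPHA5 and ROR2). Matrix, integrin and YAP target genes gave 5 of 20, long adhesion and synaptic genes 5 of 41, neural crest and EMT genes 2 of 15 and RAS and MAPK genes 1 of 20. None of 10 AP-1 genes, 17 histone chaperone and H3K9 methylation genes or 12 cell cycle and tumour suppressor genes was placed in a long interval.

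Long intervals held more ATAC and H3K27ac peaks per Mb than the autosomes at large. A feature was assigned to the interval that holds its midpoint, and the reference is 9014 windows of 300 kb on the same chromosomes that hold at least 1 feature. Parental 451Lu had 39.0 and 39.3 ATAC peaks per Mb in the long intervals, 1.31 times the windows. Resistant 451Lu had 44.4 and 46.5 per Mb, or 1.37 times the windows. Both parental libraries lay below both resistant ones. H3K27ac stood at 15.3 peaks per Mb in parental and 27.1 in resistant 451Lu, and at 22.8 and 17.2 in parental and resistant WM983B, with 1 library each. These levels followed list length. Relative to the windows H3K27ac was 1.30 times as dense in parental and 1.44 times in resistant 451Lu, and 1.24 and 1.31 times in WM983B. The shorter intervals of the table were denser than the long ones in every ATAC and H3K27ac library. In parental 451Lu the shorter intervals held 43.3 and 43.8 ATAC peaks and 18.3 H3K27ac peaks per Mb. H3K9me3 islands, the broad enriched stretches in the deposited lists, came to 24.3 and 27.5 per Mb in parental 451Lu and 15.2 and 18.9 in resistant cells. The shp150_AP1 cells had 22.2 and 17 islands per Mb and vector_NT cells 29.2 and 25.8. In both comparisons the groups did not overlap, with fewer islands in resistant and in shp150_AP1 cells. The windows also held fewer, with means of 24.4 per Mb in parental and 16.6 in resistant cells. They held 26.4 in vector_NT and 20.6 in shp150_AP1 cells. Relative to the windows the long intervals stood at 1.06 times in parental and 1.02 in resistant cells, and at 1.04 in vector_NT and 0.95 in shp150_AP1 cells.

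**Figure D1:**
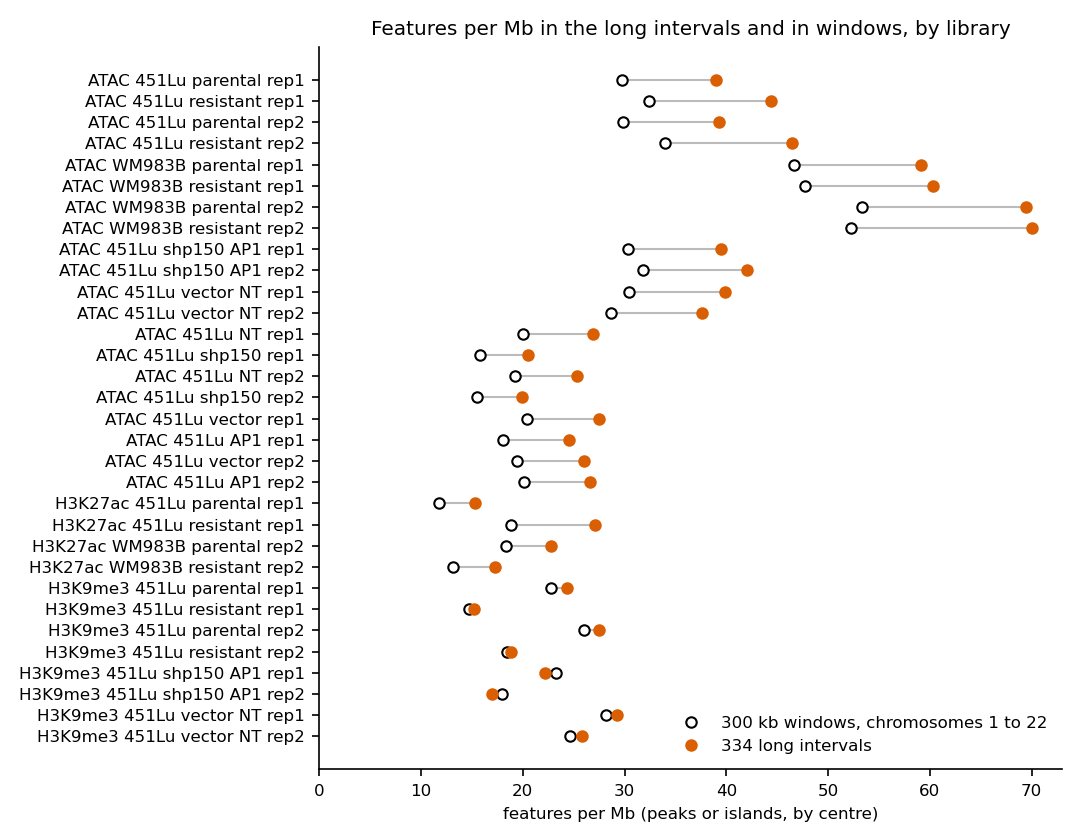
Features per Mb (ATAC peaks, H3K27ac peaks or H3K9me3 islands, horizontal axis) in each of the 32 libraries (rows). Filled points are the 334 long intervals and open points the 300 kb windows. ATAC and H3K27ac points lie to the right of their windows in the 451Lu libraries, for example 39.0 per Mb in parental 451Lu replicate 1.

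Peak numbers also followed how many features each library listed in all. Parental 451Lu listed 80326 and 80841 ATAC peaks and resistant 451Lu 87509 and 91970. The shp150 lists, at 42768 and 41829, were shorter than the NT lists at 54224 and 52011. Read depth behind ATAC and H3K27ac peaks is not in the lists. A raw count is therefore given with its value after scaling to list length.

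The intervals were classed by their features in parental 451Lu, each at or above or below its mean density over the windows (29.8 ATAC peaks, 11.8 H3K27ac peaks and 24.4 H3K9me3 islands per Mb). The class called both, with an active feature and H3K9me3 at or above those levels, held 102 intervals (30.5%). The active class, with ATAC and H3K27ac above and H3K9me3 below, held 83 (24.9%), and the partly active class, with 1 of the active features and little H3K9me3, held 57 (17.1%). The sparse class, with all 3 below, held 67 (20.1%), and the heterochromatic class, with H3K9me3 alone, held 25 (7.5%). Among the 1450 shorter intervals the counts were 393, 431, 261, 237 and 128 in the same order. Island number and covered length can part, since a wide island counts only once: using the covered share in place of island number kept 306 of 334 intervals in their class.

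Median baseMean fell from 9925 in active intervals to 4748 in both, 2556 in partly active, 1400 in heterochromatic and 1016 in sparse intervals. Among active intervals the most ATAC peaks in parental 451Lu lay at TRIM38 and HFE on chromosome 6 (45 and 49). In the class called both, CREB5 led with 58 and 58 peaks, and DLC1 had 50 and 51. In the sparse class KCNMA1, a potassium channel gene, led with 33 and 30 over 1080 kb. For H3K9me3, ROBO2 had the most islands of all (100 and 108). SDK1, an adhesion gene, led the heterochromatic class with 31 and 41 islands, and CSMD2 there had 23 and 28.

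In 451Lu, 25 long intervals carried more ATAC peaks in resistant than in parental cells and 4 carried fewer, by limma on log2 peak counts scaled to list length with Benjamini-Hochberg adjustment over all 1732 intervals tested (adjusted p under 0.05, all 334 long intervals tested). Of all intervals tested, 3.75% were called higher and 1.91% lower. The higher calls were spread over all classes, with 9 sparse, 5 both, 4 active, 4 partly active and 3 heterochromatic. Raw counts of both resistant libraries lay above both parental ones in 153 intervals and below in 24, against 32.1% and 7.17% of the table and 32.3% and 7.97% of the 300 kb windows. With counts scaled to list length, 116 were higher and 100 lower, against 27.2% and 32% of the table, and with lists cut to equal length 90 and 73. The resistant lists were the longer ones, and the excess of higher raw counts shrank on both of these scales. Of the calls by limma, 86.2% were higher with scaling, 90.9% (30 against 3) without it, and 61.9% (13 against 8) with equal lists. With 2 libraries a group there are 3 ways to split 4 libraries, so an exact permutation test of a single interval cannot reach the threshold. Calls were sensitive to the libraries and to the tool: 0 remained by edgeR's quasi-likelihood test on the peak counts, where 16 had an unadjusted p under 0.05, and 0 without resistant replicate 1, 4 without resistant replicate 2, 66 without parental replicate 1 and 58 without parental replicate 2.

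The called intervals are described by the known roles of their genes, an order chosen after the calls were seen, and no such group was tested. NTRK3 encodes the neurotrophin receptor TrkC, and its interval chr15:88260001-88800000 held 10 and 12 ATAC peaks in parental and 21 and 25 in resistant 451Lu (log2 change 0.85, SE 0.12, adjusted p = 0.0248 by limma). Each resistant library there had about as many more peaks as the parental libraries held, and the groups did not overlap. GPR39, a zinc-sensing receptor gene, shares its interval with LYPD1, whose promoter is shown above, and had 8 and 8 against 15 and 16. NRP2, in the longest interval, had 20 and 19 against 33 and 34.

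RXRA, a nuclear receptor, and COL5A1, a fibrillar collagen, share chr9:137180001-137740000, where counts rose from 17 and 16 to 37 and 33 (log2 change 0.88, SE 0.10, adjusted p = 0.0213 by limma). The basement membrane collagens COL4A1 and COL4A2 had 18 and 19 against 32 and 30. The interval of LOXL2, which crosslinks collagen, had 25 and 23 against 37 and 38. TLN2 and TPM1 encode a talin and a tropomyosin, both actin-linked, and their interval had 28 and 23 against 41 and 45. The secreted metalloprotease genes ADAMTS16 (10 and 9 against 19 and 22), ADAMTS2 (4 and 4 against 8 and 8) and ADAMTS9 (19 and 18 against 30 and 31, with PRICKLE2) were higher too. SPOCK1, a matrix proteoglycan gene, had 12 and 14 against 22 and 25. In all of these, both resistant libraries lay above both parental ones.

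FOXF1, FOXC2 and FOXL1 lie together in chr16:86300001-86960000, which held 21 and 21 peaks in parental and 39 and 39 in resistant cells (log2 change 0.71, SE 0.07, adjusted p = 0.015 by limma). FOXQ1 and FOXF2 on chromosome 6 had 13 and 12 against 19 and 22. RUNX1 had 29 and 31 against 46 and 47, and GLI2, an effector of hedgehog signalling with a motif in its promoter above, had 17 and 19 against 28 and 28. DPF3, a subunit of the BAF remodelling complex, showed the largest log2 change of the 29 called intervals, 0.94 (SE 0.09), on counts of 6 and 6 against 14 and 14. The KCNMA1 and DLG5 interval had 33 and 30 against 56 and 50. Among the rest, FEZ2 with CRIM1 had 15 and 13 against 25 and 25, CACNA1C 25 and 24 against 42 and 42, and CDH13 16 and 17 against 26 and 29.

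The remaining 4 called higher were the intervals of NUAK1 with CKAP4 (15 and 15 against 26 and 24), of SH3RF3 (13 and 12 against 22 and 25), of TG with CCN4 and NDRG1, and of SMAD7 with ZBTB7C and CTIF. SMAD7 encodes an inhibitor of TGF-beta signalling, and its interval had 32 and 35 against 49 and 50. CCN4 is a matricellular WNT target, and its interval had 19 and 21 against 35 and 37. Another 4 intervals fell. GPC6, a heparan sulphate proteoglycan, went from 18 and 17 to 12 and 12 (log2 change -0.66, SE 0.09, adjusted p = 0.0248 by limma). TAFA5 went from 13 and 15 to 10 and 9, SLC16A10 with REV3L from 24 and 27 to 20 and 21, and RUFY3 with GRSF1 and MOB1B from 24 and 26 to 19 and 21. Of the intervals that led the fall by raw counts, C1orf21 had 13 and 16 against 10 and 8, with an adjusted p of 0.063 by limma, which missed the threshold.

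**Figure D2:**
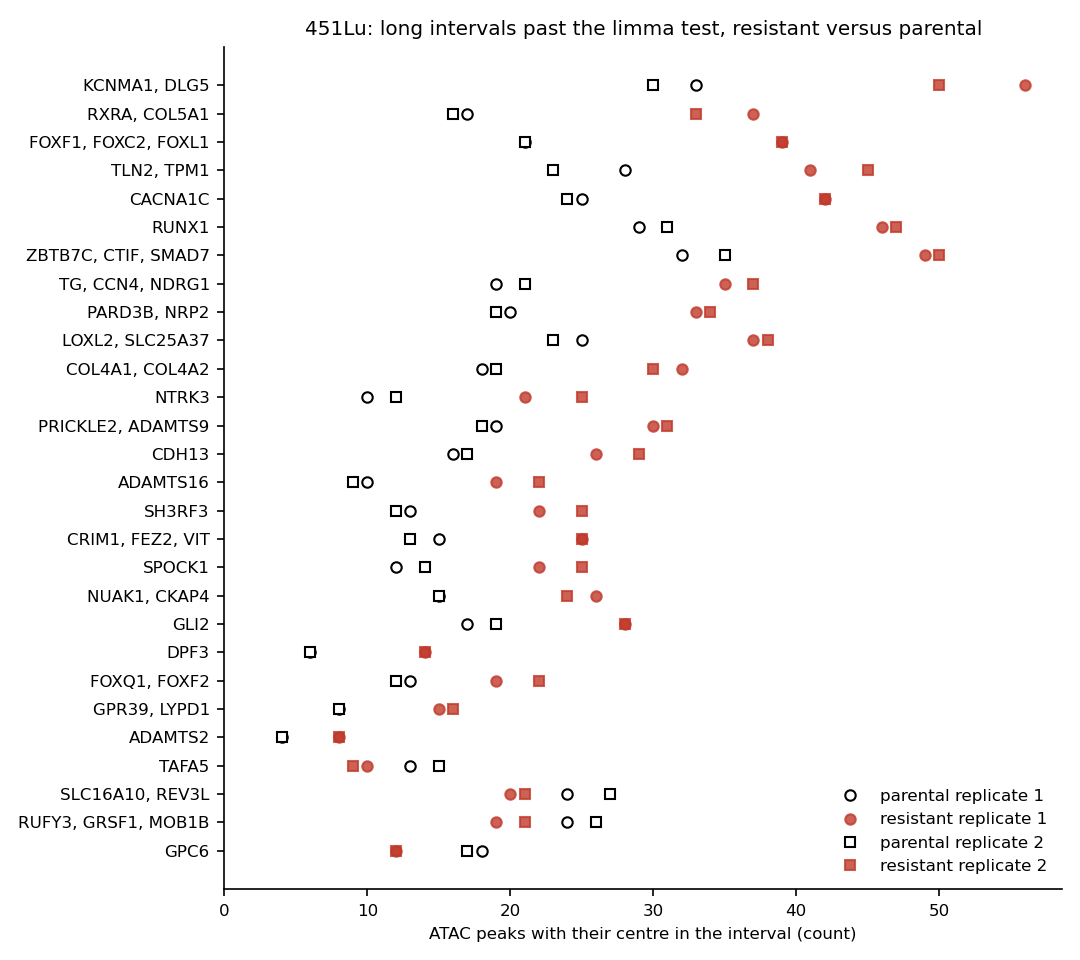
ATAC peaks (count, horizontal axis) in 28 of the long intervals past the limma test in 451Lu (rows, by gene). Open symbols are the 2 parental and filled symbols the 2 resistant libraries. Filled symbols lie right of open ones in 24 rows, for example 37 and 33 against 17 and 16 at RXRA and COL5A1, and left in 4.

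The lists of pigment, receptor and matrix genes hold few intervals each. Of the 7 melanocyte intervals 0 were called in either direction, which is near the 3.75% and 1.91% called in the table. Raw groups did not overlap in 1 of 7, which was higher, against 45.8% of all long intervals. MITF, the master factor of melanocytes, had 30 and 27 ATAC peaks in parental and 29 and 29 in resistant cells. TYRP1, a melanosome enzyme gene, had 25 and 21 against 24 and 26. The 7 receptor tyrosine kinase intervals had 1 called, NTRK3, and 4 with raw counts above both parental libraries and 0 below. MET, the HGF receptor gene, had 26 and 24 against 29 and 30, and ROR2, a WNT5A receptor, 9 and 12 against 15 and 15. For NRG1, an ERBB ligand, counts were 2 and 2 against 4 and 3. Matrix genes had 4 of 5 higher by raw counts, with 1 called, COL5A1. The median log2 change of each list on the scaled counts was -0.04 for pigment, 0.08 for receptors, 0.24 for matrix and -0.01 for long adhesion genes, beside 0.00 over all long intervals and -0.04 over all intervals tested.

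H3K27ac peaks were compared with 1 library per group, so values carry no test. In 451Lu, 115 long intervals had at least 2-fold more H3K27ac peaks in resistant than in parental cells and 12 at least 2-fold fewer. Counts below 3 were set to 3 before the ratio. Of all 1784 intervals, 19.2% were higher and 1.23% lower. The resistant list was longer (50948 against 31807 peaks), and with lists cut to equal length the counts were 59 and 34, against 8.18% and 4.71% of the table. In WM983B 18 were higher and 78 lower, against 2.8% and 11.6%, with 35477 resistant and 49682 parental peaks. With equal lists those were 36 and 30, against 5.33% and 4.09%.

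The interval of CALD1, an actin-binding protein gene, had 14 peaks in parental and 51 in resistant 451Lu. EXT1, which builds heparan sulphate, had 21 against 55, and TNS3, a focal adhesion gene, 22 against 52. ITGB1, the shared integrin beta chain, with NRP1, had 2 against 31, and TLN2 with TPM1 had 4 against 36. In WM983B the same intervals stood at 47 and 46, 26 and 27, 51 and 63, 20 and 24, and 10 and 17, parental first. On raw peaks all 5 matrix intervals were at or past 2-fold in 451Lu, against 34.4% of the long intervals. They were FN1 with 7 and 21, COL1A1 with 11 and 32, COL5A1 with 3 and 24, TGFBI with 2 and 13, and VCAN with 3 and 6. VCAN lay just at the cut. The resistant 451Lu list was the longer one, and no count with equal lists is given here for the gene lists. The part of list length in them was not tested. Of the 7 receptor and ligand intervals, 3 were past 2-fold higher in 451Lu and 0 lower, among them NRG1 with 2 and 23 and NTRK3 with 2 and 9. In WM983B 0 of the 7 were past 2-fold higher and 2 lower.

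MITF had the same raw number of H3K27ac peaks in parental and resistant 451Lu, 42 and 42. In WM983B it had 30 in parental and 8 in resistant cells. FRMD4B, beside it on chromosome 3, had 48 and 47 in 451Lu and 39 and 13 in WM983B. These counts are not scaled, and the resistant list was the longer one in 451Lu and the shorter one in WM983B. The part of list length in this contrast was not tested. In all 17 intervals were past 2-fold higher in resistant cells of both lines, among them GLI2 (2 and 17 in 451Lu, 6 and 14 in WM983B), SPOCK1 (1 and 12, 2 and 6) and COL1A1 (11 and 32, 4 and 12). Another 8 were lower in both, among them EYA4 and SOX6, both developmental transcription regulators. FOXQ1 and FOXF2 belonged to 7 that went opposite ways, with 5 and 12 in 451Lu and 14 and 3 in WM983B. The counts of 17, 8 and 7 are of raw peaks, and no share over all intervals or with equal lists is given here. Of the 153 intervals with raw ATAC counts higher in resistant 451Lu, 87 had H3K27ac past 2-fold higher and 0 past 2-fold lower. Over all 334 long intervals these were 115 and 12.

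**Figure D3:**
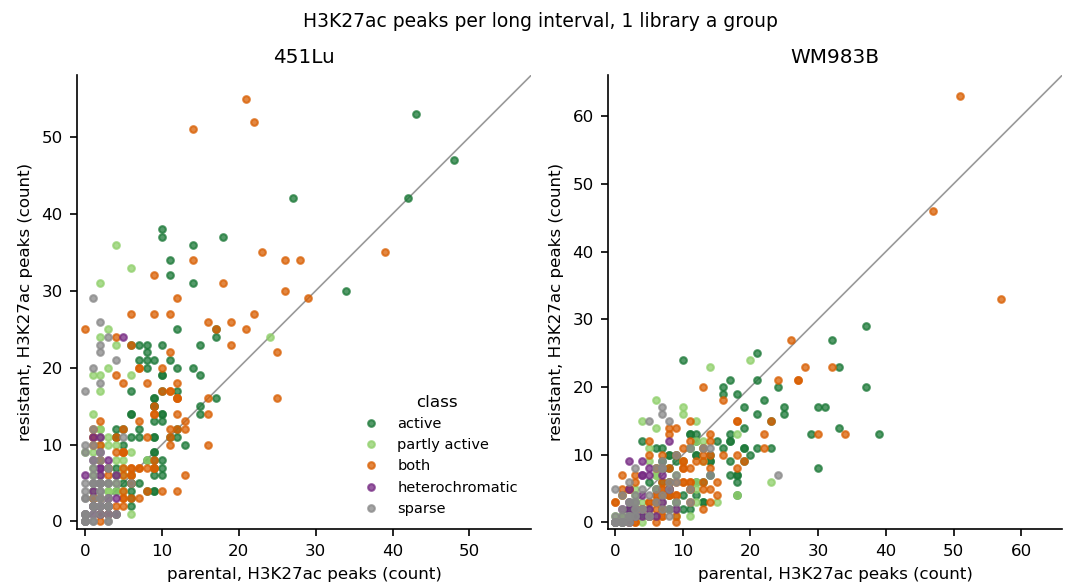
H3K27ac peaks per long interval (count) in parental (horizontal axis) and resistant (vertical axis) cells of 451Lu (left) and WM983B (right), with 1 library a group, coloured by class, and the line of equal counts. Most 451Lu points lie above the line, where 115 intervals are past 2-fold higher. In WM983B 78 are past 2-fold lower.

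Listed H3K9me3 islands covered less of many long intervals in resistant than in parental 451Lu. The parental lists were longer, with 61470 and 70332 islands against 39905 and 50017. Island ChIP reads came to 1.57e+07 and 1.82e+07 in parental and 1.48e+07 and 1.32e+07 in resistant cells. Over all islands there were 1.30 and 1.44 ChIP reads per input read in parental and 1.13 and 1.07 in resistant cells. The part of these differences in the lower covered share was not tested. The share of long interval covered by islands was 13.4% and 13.7% in parental and 11.8% and 10.7% in resistant cells, and the median interval went from 7.53% and 8.15% to 4.36% and 4.06%. Covered shares lay below both parental libraries in 207 intervals and above in 51, against 45.4% and 11.7% of the table. Among the windows, 56.9% lay below and 15.1% above. Island counts lay below in 198 and above in 24, against 37.8% and 5.21% of the table and 53.6% and 7.32% of the windows. With counts scaled to list length these were 150 and 91, against 30.2% and 21.6% of the table. Limma on scaled island counts called 88 lower and 50 higher among 329 tested, against 12.8% and 12.4% of the table. Without scaling these were 72 and 6, and with lists of equal length 36 and 9. By edgeR on the same island counts 0 were called (97 at an unadjusted p under 0.05), and the 138 limma calls were 78 without parental replicate 1 and 60 without parental replicate 2. Scaling moved the median log2 change of all intervals from -0.50 to 0.06 here, from -0.50 to -0.14 in the shp150_AP1 comparison, from 0.11 to -0.04 for ATAC in resistant 451Lu and from -0.29 to 0.04 in shp150.

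TYRP1 lost most of its islands. They covered 7.59% and 8.69% of it in parental cells and 0% and 0.414% in resistant cells, and island counts were 14 and 15 against 0 and 1 (log2 change -2.90, SE 0.32, adjusted p = 2.14e-16 by limma). EDNRB, the endothelin receptor gene of melanocytes, was covered to 33.1% and 34.1% in parental and 8.0% and 11.6% in resistant cells. Both resistant libraries had lower covered shares than both parental ones in 5 of 7 pigment intervals, and higher in 0, beside 62.0% and 15.3% of all long intervals. AGMO, an ether lipid enzyme gene, went from 47.8% and 47.8% to 9.11% and 7.11%. CREB5 went from 23.6% and 25.9% to 8.09% and 7.96%.

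Higher covered shares lay at other intervals. PLCB4, a phospholipase gene, was covered to 31.2% and 31.8% in parental and 65.3% and 56.0% in resistant cells (log2 change of islands 1.20, SE 0.17, adjusted p = 4.19e-10 by limma). MYH9, a non-muscle myosin gene, went from 15% and 17.7% to 41.3% and 28.9%. Of the 153 intervals with more raw ATAC peaks, the covered share was lower in 79 and higher in 32, so more ATAC peaks occurred beside both directions of covered share. Over all 334 long intervals the covered share was lower in 207 and higher in 51.

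ChIP reads inside the islands gave 53 intervals higher and 73 lower among 327 tested (edgeR quasi-likelihood, Benjamini-Hochberg adjusted p under 0.05), against 12.2% and 21.2% of the table. Of the 73 lower, 16 had no listed island read in one group, and their folds are not given. Reads per kb of island hardly moved: relative to each library, the median log2 change was 0.03 in the 53 and -0.04 in the other 57 of the 73, so the read counts followed the length of DNA called as island. AGMO had 7749 and 8497 reads in parental and 1458 and 1291 in resistant cells, and 45.0 and 49.4 against 44.5 and 50.4 reads per island kb. Calls fell to 1 without parental replicate 1, to 0 without parental replicate 2 and to 0 with the replicate number as a block.

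Input reads carry no mark. Their density in islands, relative to all islands of a library, is given as a guide to the amount of DNA read. It covers called islands alone, so it can also move where the islands differ between libraries. In 285 intervals with a value in all 4 libraries, input was higher in resistant cells in 58 and lower in 126, against 19.9% and 39.7% of the table, and the median log2 change was -0.07. Medians by chromosome ran from 0.33 on chromosome 16 and 0.20 on chromosome 14 to -0.22 on chromosome 7 and -0.26 on chromosome 15. AGMO, CREB5 and SDK1 are on chromosome 7, and the part of input in their H3K9me3 change was not tested. Across the 285 intervals the ATAC change went with the input change with Pearson's r of 0.46 and Spearman's rank correlation of 0.45. Among intervals called higher in ATAC, those of FOXF1 and CDH13 are on chromosome 16 and that of NTRK3 is on chromosome 15. The part of input in the ATAC changes was not tested.

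**Figure D4:**
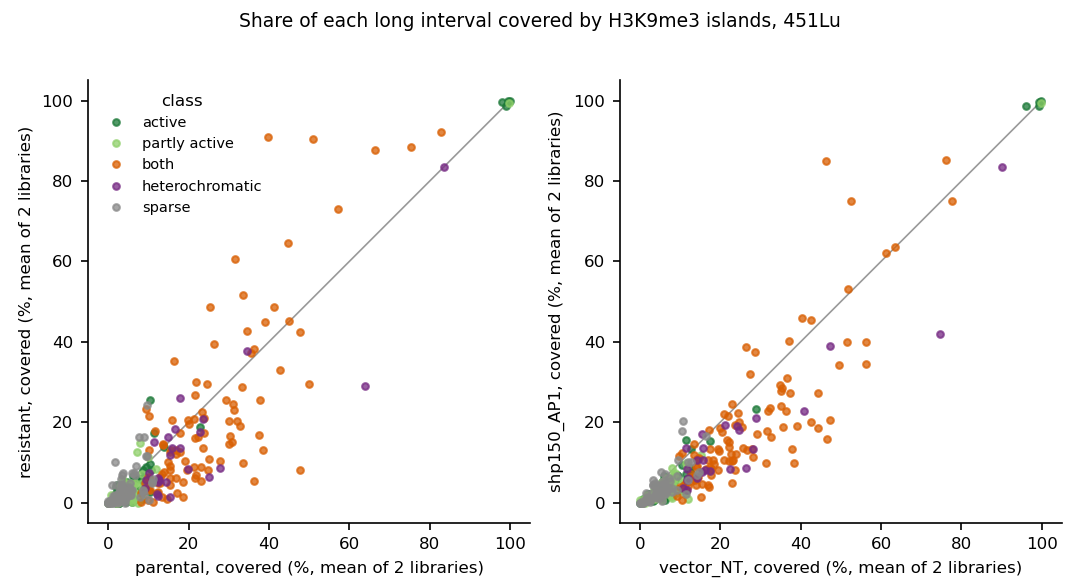
Share of each long interval covered by H3K9me3 islands (percent, mean of 2 libraries) in parental against resistant 451Lu (left) and in vector_NT against shp150_AP1 cells (right), coloured by class, with the line of equal shares. More points lie below the line, where 207 intervals on the left and 243 on the right have groups that do not overlap.

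A few intervals were nearly filled with listed H3K9me3 islands. In 24 of the 334, islands covered over 50% in at least 1 of 8 libraries, and in 10 they did so in all 8. FHIT, CADPS, PRICKLE2 with ADAMTS9, FRMD4B and MITF, all on the short arm of chromosome 3, were over 90% covered in every library, from 94.7% to 100%. In those 5 the input density was 3.2 to 5.3 times that of the library's islands, where a value could be had. The islands that overlap them held fewer ChIP reads per input read than all islands of the same library in all 40 values, 0.41 to 0.77 times as many. In 34 of the 40 there were fewer ChIP than input reads. MITF had 0.763 and 0.798 ChIP reads per input read in parental cells and CADPS 0.586 and 0.664, beside 1.30 and 1.44 over all islands of those libraries. The widest island there reached 2847 kb. These intervals also held 24 to 48 H3K27ac peaks in parental 451Lu, and the class of most of them is active because a wide island counts once. The part of the high input in the covered share was not tested. MITF was covered to 100% in all 4 parental and resistant libraries. Its relative input was 4.90 and 4.77 in parental and 3.51 and 3.54 in resistant cells.

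Listed H3K9me3 islands covered more of ROBO2 and TAFA5 in resistant cells. ROBO2 went from 52.7% and 49.0% covered to 92.5% and 88.5%, with relative input of 1.51 and 1.5 against 1.34 and 1.33. TAFA5 went from 41.1% and 38.5% to 91.4% and 90.5%, with relative input of 1.26 and 1.29 against 0.90 and 0.898, and its ATAC peaks fell as given above. EPHA3, an ephrin receptor gene, went from 68.5% and 64.0% to 91.0% and 84.3%. ChIP reads per input read went from 1.32 and 1.43 to 1.93 and 1.71 at TAFA5, but stood below 1 in all 4 libraries at ROBO2 and EPHA3. In these 3 intervals the covered share was higher and relative input lower in resistant cells. Relative input is taken over called islands alone, so the DNA it measures differs where islands widen. It cannot show whether the amount of DNA changed, and its part was not tested. SDK1 went from 62.1% and 65.6% to 29.1% and 29%, and AGMO fell as above.

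**Figure D5:**
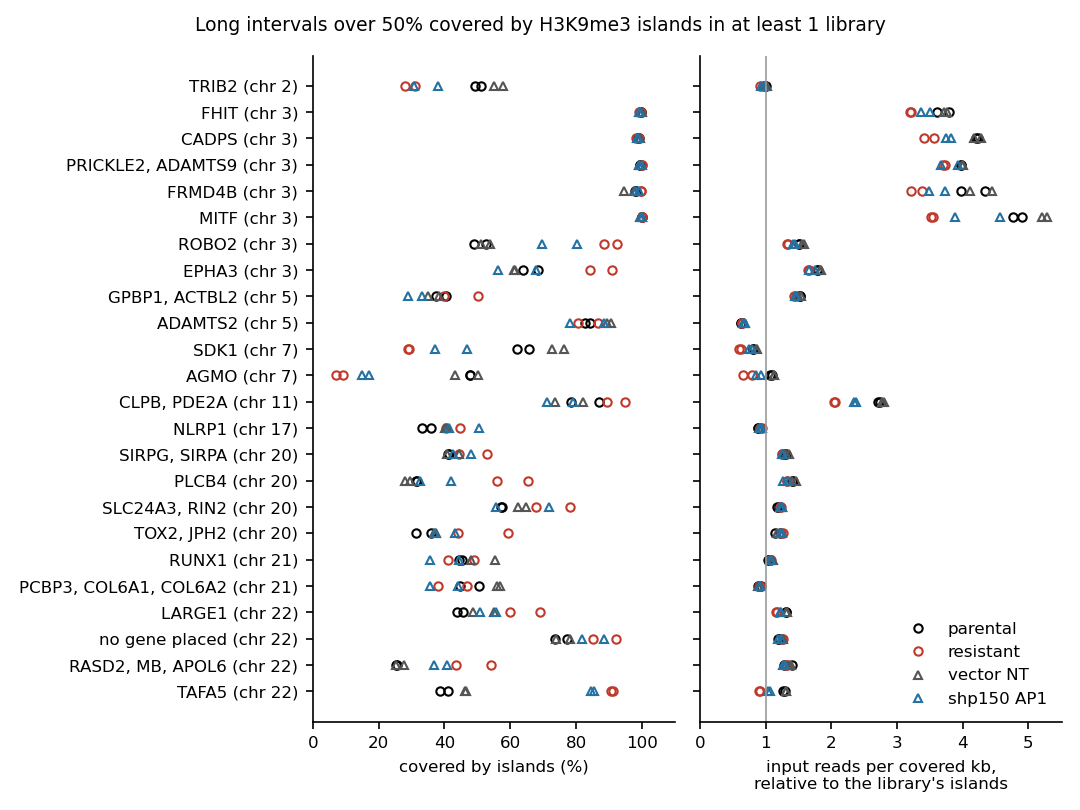
The 24 long intervals over 50% covered by H3K9me3 islands in at least 1 library (rows). The left panel gives the covered share (percent) and the right panel input reads per covered kb relative to all islands of the library, each point 1 library of parental, resistant, vector_NT or shp150_AP1 451Lu. FHIT to MITF lie at 94.7% to 100% covered with relative input of 3.2 to 5.3.

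The engineered 451Lu cells were compared with their own controls. In shp150_AP1 cells 4 intervals had more ATAC peaks than in vector_NT cells by limma, against 0.462% of the table higher and 0.289% lower, and 0 had fewer. Those described here were SPOCK1 (12 and 10 against 18 and 22), KCNMA1 with DLG5 (29 and 29 against 42 and 41) and BDKRB2, a bradykinin receptor gene (9 and 9 against 16 and 15). SPOCK1 and the KCNMA1 interval were also called higher in resistant 451Lu. For BDKRB2 the resistant counts were 16 and 15 against 11 and 10, with an adjusted p of 0.105 by limma. These calls were 0 with a pseudocount of 0.5, with the better-scoring peaks alone, and by edgeR. Raw counts were higher in 83 and lower in 34 intervals, against 17.4% and 7.62% of the table and 20.7% and 8.19% of the windows. Scaled counts were higher in 84 and lower in 78, against 18.2% and 18.7%. Of the 153 intervals with higher raw counts in resistant 451Lu, 63 were also higher in shp150_AP1 cells and 4 lower. Over all long intervals the raw counts in shp150_AP1 cells were higher in 83 and lower in 34. The comparisons share no library, but raw counts follow list length in both. The joint count is not given on scaled counts or over the whole table, and it was not tested.

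Listed H3K9me3 islands covered less of 243 long intervals in shp150_AP1 than in vector_NT cells, and more of 21. Of the whole table these were 51.6% and 4.93%. The vector_NT lists were longer, with 76134 and 66537 islands against 63016 and 48486. Island ChIP reads came to 3.09e+07 and 2.17e+07 in vector_NT and 1.15e+07 and 1.48e+07 in shp150_AP1 cells. Over all islands there were 2.42 and 1.67 ChIP reads per input read in vector_NT and 1.04 and 1.14 in shp150_AP1 cells. The part of these differences in the lower covered share was not tested. Island counts were lower in 193 and higher in 11, against 34.4% and 2.41% of the table and 43.6% and 6.47% of the windows, and scaled counts in 162 and 63, against 29.1% and 19.9%. Limma on scaled island counts called 61 lower and 21 higher, against 8.99% and 4.37%. Without scaling these were 40 and 1. The limma test on scaled counts found none of the changes put into data simulated for this comparison. Its calls and p-values are therefore not firm evidence. By edgeR on the island counts 0 were called (53 at an unadjusted p under 0.05), and the 82 limma calls were 30 without vector_NT replicate 1 and 27 without vector_NT replicate 2. TYRP1 had islands over 8.66% and 12.2% in vector_NT and 0.31% and 1.03% in shp150_AP1 cells (log2 change of islands -2.75, SE 0.29, adjusted p = 2.5e-18 by limma). EDNRB went from 35.9% and 39.9% to 10.8% and 16%. In 5 of the 7 pigment intervals the covered share was lower, and in 0 higher, beside 72.8% and 6.29% of all long intervals. TAFA5 rose from 46.6% and 46.2% to 84.5% and 85.3%. ChIP reads by edgeR gave 31 higher and 43 lower, against 7.19% and 12.8% of the table. These 74 calls were 0 without vector_NT replicate 1, 0 without vector_NT replicate 2, 0 with the replicate number as a block and 23 with no filter on low counts. Relative input was higher in 31 and lower in 153 of 312 intervals, against 9.79% and 43.5%, and its part was not tested. The labels list an input library for shp150_AP1 replicate 2 but none for replicate 1. Where the input reads listed for replicate 1 come from is not named. The input values of shp150_AP1 cells, also those per ChIP read, may therefore not be separate measurements.

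AP1 and shp150 alone were compared with vector and NT cells. Whether their numbers of calls differ from that of shp150_AP1 cells was not tested, and without scaling limma called 6 intervals for AP1, 18 for shp150 and 8 for shp150_AP1. For AP1 against vector cells, limma on scaled counts called 0 of 331 intervals tested (31 at an unadjusted p under 0.05, 0 by edgeR), and the same test also found none of the changes put into data simulated for this comparison, so its lack of calls is not informative. Raw counts were higher in 26 and lower in 60, against 5.16% and 9.02% of the table and 4.3% and 11% of the windows. Scaled counts were higher in 69 and lower in 62, against 17.8% and 10.3%. For shp150 against NT cells, limma called 0 (34 at an unadjusted p under 0.05, 0 by edgeR), with raw counts higher in 5 and lower in 177, against 1.12% and 32.7% of the table and 1.96% and 32.6% of the windows. The shp150 lists were shorter, and with counts scaled to list length 56 were higher and 81 lower, against 20.1% and 20.5%.

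In WM983B no long interval was called. Limma gave 0 calls under every setting tried, with 0 at an unadjusted p under 0.05 on counts scaled to list length, and edgeR gave 0 by either measure. Raw ATAC counts were higher in 19 and lower in 19, against 7.23% and 5.55% of the table and 6.63% and 7.99% of the windows, and scaled counts in 38 and 35, against 13.8% and 10.4%. The 4 WM983B libraries differed more by replicate number than by resistance in many intervals. At RXRA and COL5A1, replicate 1 held 28 peaks in parental and 32 in resistant cells, and replicate 2 held 66 and 73. Replicate 2 lists were longer in both groups (144329 and 141352 against 126086 and 129057). Of the 153 intervals higher in resistant 451Lu, 9 were higher and 9 lower in WM983B.

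Last, the authors' deposited table gives a signed log2 fold change for each interval, whose direction is not named. A total of 152 long intervals had a positive and 158 a negative change at an adjusted p under 0.05 in the authors' deposited table, beside 595 and 729 in the 1784. Of those the authors' deposited table calls positive, 105 had more raw ATAC peaks in resistant 451Lu and 2 fewer, against 33 and 22 of those it calls negative. With counts scaled to list length, 89 of the positive were higher and 14 lower, against 17 and 82 of the negative. H3K27ac was past 2-fold higher in 98 and lower in 0 of the positive, and 9 and 12 of the negative. With lists of equal length these were 54 and 1, and 2 and 32. Across the 334 intervals the deposited log2 fold change in the authors' deposited table went with the H3K27ac change with Pearson's r of 0.70 and Spearman's rank correlation of 0.72, and with the ATAC change with 0.57 and 0.57. Relative input went with it with 0.53 and 0.55 over 285 intervals. The intervals share libraries, so these are descriptions without a test.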

How the data were processed

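The deposited peak lists of 20 ATAC-seq and 4 H3K27ac ChIP-seq libraries give a score per peak, and the deposited H3K9me3 lists give for each island the ChIP and input read counts, a p-value, a fold ratio over input and an FDR, all made by the authors before deposit. The deposited interval table gives baseMean, a signal level of the authors, with a log2 fold change, a test statistic and p-values of their own. Bowtie2, Picard, MACS2, SICER, STAR 2.5.3, deepTools and hg19 are named, with no roles or order, per the submitters' processing notes.

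Features were counted per interval by midpoint and on log2(count + 1), less the log2 of list length, tested with limma 3.58.1 (trend, two-sided) in R 4.3.3 over all intervals on chromosomes 1 to 22 with a feature. Island reads were tested with edgeR 4.0.16 (quasi-likelihood, TMM, filterByExpr, library size from all islands). DESeq2 1.42.0 was an alternative. A threshold of 0.05 was put on adjusted p-values (Benjamini-Hochberg). Groups called not overlapping have both libraries above, or below, both controls. The tests were checked on simulated data, where known changes were found except by limma in the AP1 ATAC and shp150_AP1 island comparisons. Read depth is in the H3K9me3 lists only, and there only inside islands.

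Intervals named are the longest, those with most peaks or islands by class, those that lead by difference, and members past a test. Of the called ATAC intervals, 1 is not reported here by name and not drawn. The H3K9me3 tests passed too many members to name, so those named were chosen after their values were seen, as were the H3K27ac leaders and the intervals with wide islands. The members and lists were chosen with earlier results of these data known. Gene families and promoters of cell type markers were not placed, since an hg19 annotation was not used here.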

Additional observations from a re-analysis of the deposited data

Results flagged for a closer look

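In 12 long intervals the ATAC peak counts of resistant and parental cells did not overlap in either line and went opposite ways in 451Lu and WM983B, with 9 higher and 3 lower in resistant 451Lu. These are 3.59% of the long intervals, against 1.91% of the 1784 in the table. About as many, 10 (2.99%, against 2.91%), went the same way in both lines, 9 higher and 1 lower. The difference between the lines was not tested. LSAMP, an adhesion gene, had a mean of 4 peaks more in resistant than parental 451Lu, while both resistant WM983B libraries lay below both parental ones. VCAN with HAPLN1, matrix genes, had 2 more in 451Lu and fewer in WM983B. In 7 intervals H3K27ac peaks were past 2-fold in opposite directions in the lines, with 1 library a group and no test. FOXQ1 with FOXF2 was among them, with 7 more peaks in resistant 451Lu and fewer in resistant WM983B. The resistant H3K27ac list was the longer one in 451Lu and the shorter one in WM983B, and these counts are not scaled.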

How the results depend on the processing

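Of 168 values recomputed under other settings, leaving aside those that leave out a library, 106 stayed within 1.5 times the main count or within the spread between replicates and 62 did not; the cause was not tested in any of them. A minimum of 200 kb gave 650 long intervals and 400 kb gave 163. The density ratio of parental ATAC peaks was 1.312 by any overlap and 1.354 with better-scoring peaks, and that of islands 1.032 with better-scoring islands. With the window median as the class cut, 39 intervals were sparse. Equal H3K27ac lists gave 59 higher and 34 lower in 451Lu, and 36 and 30 in WM983B. Limma ATAC calls in 451Lu were 57 with a mean of at least 3 peaks and 0 by edgeR. For AP1 they were 6 without scaling and 13 with equal lists, and for shp150 18 and 6. For shp150_AP1 they were 8 without scaling, 15 with equal lists, 20 with a mean of at least 3, and 0 with a pseudocount of 0.5, with better-scoring peaks and by edgeR. H3K9me3 island calls in resistant cells were 78 without scaling, 45 with equal lists and 0 by edgeR (97 at an unadjusted p under 0.05), and in shp150_AP1 41, 35 and 0 (53 unadjusted). Island reads gave 195 calls in resistant and 179 in shp150_AP1 cells by DESeq2, and 23 in the latter with no filter.

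Counts of intervals whose groups do not overlap moved as follows, scaled to list length (added after seeing the data), with equal lists and with better-scoring features. In 451Lu the higher ATAC count was 90 with equal lists and the lower 100, 73 and 40. In WM983B the higher count was 38 when scaled and 10 with better-scoring peaks, and the lower 35 when scaled. For AP1 the higher count was 69 and 48 (scaled, equal). For shp150 the higher count was 56, 34 and 2 and the lower 81, 42 and 105. For shp150_AP1 the lower count was 78 and 65. H3K9me3 islands gave 91, 66 and 13 higher and 130 lower with equal lists in resistant cells, and 63 and 57 higher in shp150_AP1.

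Leaving out 1 library at a time, where the lone library is assumed to vary like the other group, gave these ranges. Density ratios were 1.313 to 1.314 (ATAC) and 1.058 to 1.07 (H3K9me3). Limma calls were 0 to 66 in 451Lu, 0 in WM983B, 0 to 2 for AP1, 0 to 10 for shp150 and 10 to 21 for shp150_AP1. Non-overlapping ATAC counts, higher then lower, were 168 to 207 and 32 to 59 in 451Lu, 38 to 130 and 41 to 115 in WM983B, 41 to 81 and 83 to 141 for AP1, 12 to 18 and 214 to 233 for shp150, and 101 to 160 and 50 to 84 for shp150_AP1. H3K9me3 limma calls were 60 to 146 and 27 to 119, with island counts higher in 27 to 50 and 15 to 47 and lower in 204 to 254 and 199 to 263 (resistant, then shp150_AP1). Read calls were 0 to 147 and 0 to 79, and input counts 224 to 245 and 236 to 265. Classes were 82 to 84 active, 55 to 56 partly active, 101 to 105 both, 21 to 33 heterochromatic and 62 to 69 sparse.

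Replicate numbers are shared between groups but the labels name no shared culture or day, and there are only 2 pairs. Over all intervals, same-numbered libraries deviated together in WM983B ATAC (r = 0.444) and hardly elsewhere (r from -0.045 to 0.026). With the replicate block limma called 85 ATAC intervals in 451Lu (55 higher, 30 lower), 20 for shp150_AP1 and 0 in WM983B, AP1 and shp150, and edgeR on island reads called 0 in either H3K9me3 comparison. Taken as pairs, the counts higher were 76 in WM983B (66 lower), 8 for shp150 and 21 for shp150_AP1 islands. The block moved no other count by over 1.5 times. List length and, for the islands, the reads inside them limit all counts.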
